A study of Mus musculus with 52 samples.

Results

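Fgf4, Spry2, Spry4, Dusp6, Etv4 and Etv5 are 6 mouse genes of the FGF-ERK signalling pathway, chosen by name as its ligand, its feedback inhibitors and its transcriptional effectors. All 6 were found among the 24263 gene intervals kept from the authors' gene table. The enhancers counted for each gene are the regions of 2 published sets, 1 for epiblast-like cells (EpiLCs) and 1 for mouse embryonic stem cells (mESCs), whose centre lay within 100 kb of the transcription start site (TSS). This gave 39 of the 16576 EpiLC enhancers and 17 of the 8794 mESC enhancers. Each region was also called overlapping or not, according to whether it had at least 1 bp in common with a region of the other set.

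The study profiled chromatin by immunoprecipitation and sequencing in 52 libraries, 9 from EpiLCs and 43 from mESCs, all of C57BL6/129Sv background. EpiLCs resemble the post-implantation epiblast and were collected after 48 h of differentiation. The mESCs were kept without feeders in LIF and 2i, a pair of inhibitors against GSK3 and MEK1. The EpiLC immunoprecipitations came from pK27R cells (2 clones, arginine in place of lysine 27 in all H3), SUZ12KO cells (no SUZ12, a core Polycomb subunit) and ABE control cells, and the labels give no genotype for the EpiLC input library. The mESC libraries came from cK27R cells (2 clones, K27R in canonical H3 alone), pK27R cells (2 clones), SUZ12KO cells, H3-3KO cells (no H3.3 histone), pK27WT cells (2 knockout clones with wild-type histone added back) and ABE control cells. For the libraries made with an H3.3 antibody, the pK27R label stands for knockout clones with K27R histone added back. The enhancer and gene tables analysed here give positions and no signal per library. The genotypes are therefore not compared, sequencing depth is unknown, and no value below has replicates or a test.

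FGF4 is the fibroblast growth factor that pluripotent cells secrete. It acts through FGF receptors, RAS, RAF, MEK and the kinase ERK, and in mESCs this signal drives the exit from naive pluripotency; an inhibitor of MEK, as in 2i, blocks it. ERK activity induces its own brakes, among them the Sprouty proteins SPRY2 and SPRY4, which act on the pathway upstream of ERK, and DUSP6, a phosphatase that removes the activating phosphates from ERK in the cytoplasm. ETV4 and ETV5 are ETS-family transcription factors whose genes are induced by FGF signalling. An enhancer active in the naive state can stay marked after differentiation, be lost or be replaced by others. The share of regions found in both sets describes only how far the regions listed for a locus coincide. Both sets come from earlier work of other groups, and the culture conditions behind them are not known here.

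Sequences were read from the mm10 genome (GRCm38.p6, RefSeq) to show the DNA held by both sets. The first 2 stretches are the central 300 bases of regions shared by both sets, plus strand, shown because the split into shared and unshared regions rests on such DNA. The Fgf4 stretch is chr7:144851352-144851651, centred 9.88 kb upstream of the TSS, and its capitals mark an ESRRB motif (CAAGGTCA, here on the minus strand). The Etv5 stretch is chr16:22442211-22442510, centred 2.79 kb upstream of the TSS, and its capitals mark SOX core words (CATTGT or CTTTGT on either strand). In the central 300 bp of all regions the ESRRB motif occurred in 2.79% of the EpiLC set and 5.9% of the mESC set, and a SOX core word in 37.6% of the EpiLC set and 58.5% of the mESC set.
Fgf4 shared stretch: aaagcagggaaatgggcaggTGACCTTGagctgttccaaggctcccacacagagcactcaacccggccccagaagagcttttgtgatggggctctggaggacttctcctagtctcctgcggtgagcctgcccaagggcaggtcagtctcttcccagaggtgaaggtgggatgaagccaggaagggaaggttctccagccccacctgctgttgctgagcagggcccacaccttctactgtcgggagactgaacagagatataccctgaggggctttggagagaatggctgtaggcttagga
Etv5 shared stretch: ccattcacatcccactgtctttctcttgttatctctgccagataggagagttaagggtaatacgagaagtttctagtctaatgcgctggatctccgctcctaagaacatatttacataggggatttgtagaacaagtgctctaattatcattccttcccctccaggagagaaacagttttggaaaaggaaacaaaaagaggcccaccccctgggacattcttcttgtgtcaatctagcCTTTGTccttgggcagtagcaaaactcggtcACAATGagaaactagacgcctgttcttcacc

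The 250 bases before the TSS are shown for Dusp6, whose TSS lay inside a region of each set, and for Spry2, whose TSS lay inside an EpiLC region only. The Dusp6 stretch is chr10:99262981-99263230 on the plus strand, with 56.4% G and C and 16 CpG. The Spry2 stretch is chr14:105896820-105897069 on the minus strand, with 62.4% G and C and 23 CpG, and its capitals mark 1 SOX core word. None of the 13 motifs searched occurred in the Dusp6 stretch. The SOX core occurred in 25.2% of 32851 RefSeq promoters searched over the same 250 bases on both strands.
Dusp6 promoter: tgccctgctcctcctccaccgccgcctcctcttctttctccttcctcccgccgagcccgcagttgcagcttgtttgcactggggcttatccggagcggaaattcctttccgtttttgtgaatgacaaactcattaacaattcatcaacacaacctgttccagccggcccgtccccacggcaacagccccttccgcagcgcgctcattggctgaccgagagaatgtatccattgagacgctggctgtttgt
Spry2 promoter: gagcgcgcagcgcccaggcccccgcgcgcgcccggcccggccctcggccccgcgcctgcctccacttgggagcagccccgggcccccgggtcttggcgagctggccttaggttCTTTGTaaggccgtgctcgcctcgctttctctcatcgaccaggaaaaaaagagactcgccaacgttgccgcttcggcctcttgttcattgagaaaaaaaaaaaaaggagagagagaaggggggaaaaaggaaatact

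The sites below are octamer words of POU factors such as OCT4 (ATGCNAAT on either strand, in capitals) inside DNA shared by both sets, with bases on either side, all given on the plus strand. Another octamer of Fgf4, 2.96 kb downstream, and that of Spry4 are not shown. The first site also holds a SOX core word in capitals. It lies in the last exon of Fgf4, in the 3′ UTR at chr7:144864389-144864416, where a SOX2 and OCT4 bound enhancer of mouse Fgf4 is known from earlier work. The SOX and POU words are 4 bases apart, and the SOX word starts 3.01 kb after the TSS. The same pair of words in the same order and spacing occurred in 2 of the 16576 EpiLC regions and in 3 of the 8794 mESC regions, counting both strands and the Fgf4 regions themselves. The other Fgf4 octamer shown is at chr7:144853333-144853360, the Spry2 octamer at chr14:105859220-105859247, and the Etv4 octamers, in the order shown, at chr11:101787654-101787681, chr11:101697818-101697845, chr11:101696536-101696563 and chr11:101696374-101696401.
Fgf4 SOX and POU words, 3.01 kb downstream: aaactCTTTGTttggATGCTAATgggat
Fgf4 octamer, 8.04 kb upstream: cacagatacaATGCTAATgctgtctgct
Spry2 octamer, 37.6 kb downstream: gtggttgggtATTTGCATatgtaacata
Etv4 octamer, 2.35 kb upstream: aaattataaaATGCAAATgtggacttta
Etv4 octamer, 87.5 kb downstream: aagcagaggtATTTGCATgaaggataca
Etv4 octamer, 88.8 kb downstream: cggtgcttttATGCTAATgctttggagg
Etv4 octamer, 88.9 kb downstream: ctgatgaacaATTTGCATctaaggggcc

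All 6 genes had enhancers of both sets within 100 kb. Of all genes, 74.0% had an EpiLC enhancer in that window, 55.3% had an mESC enhancer and 47.9% had both, so the presence of a region is common. Of the 39 EpiLC regions near the 6 genes, 19 overlapped an mESC enhancer (48.7%), beside 25.9% of the whole EpiLC set. Of the 17 mESC regions, 14 overlapped an EpiLC enhancer (82.4%), beside 42.9% of the whole mESC set. Much of this rested on a block of 231 rows that opens the mESC table before its coordinates restart. Without it 9 of the 39 EpiLC regions overlapped (23.1%), close to the 23.6% of the whole EpiLC set, so the EpiLC share near the genes was not above that of the set. In the mESC set 9 of 12 regions outside the block overlapped, beside 41.5% of the whole set outside it. The regions near these genes were also longer than most. Their median length was 2150 bp in the EpiLC set, against 1750 bp over the whole set, and 1336 bp in the mESC set, against 711 bp over the whole set. Each set was split into 4 classes of length at its quartiles. In the longest EpiLC class 13 of the 16 regions near the 6 genes overlapped, against 40.4% of all regions in that class. In the other 3 classes 2 regions each overlapped, of 8, 5 and 10 from shortest to longest, where 17.6%, 20.1% and 25.6% of the set did. Of the 19 overlapping EpiLC regions, 13 were thus in the longest class. In the longest mESC class 9 of 11 overlapped, against 70.6% of the class. The part that length has in these shares was not tested. The counts also rest on the 1 bp rule. With at least 50% of both regions required, 3 EpiLC regions overlapped (7.69%, beside 4.97% of the set) and 3 mESC regions (17.6%, beside 9.36%). With regions of 500 bp around their centres, 4 EpiLC regions overlapped (10.3%, beside 14.1% of the set) and 4 mESC regions (23.5%, beside 26.1%), in both cases below the share of the set. Without regions over 10 kb, 12 of 36 EpiLC regions overlapped (33.3%, beside 21.7% of the set) and 9 of 14 mESC regions (64.3%, beside 39.5%).

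**Figure D1:**
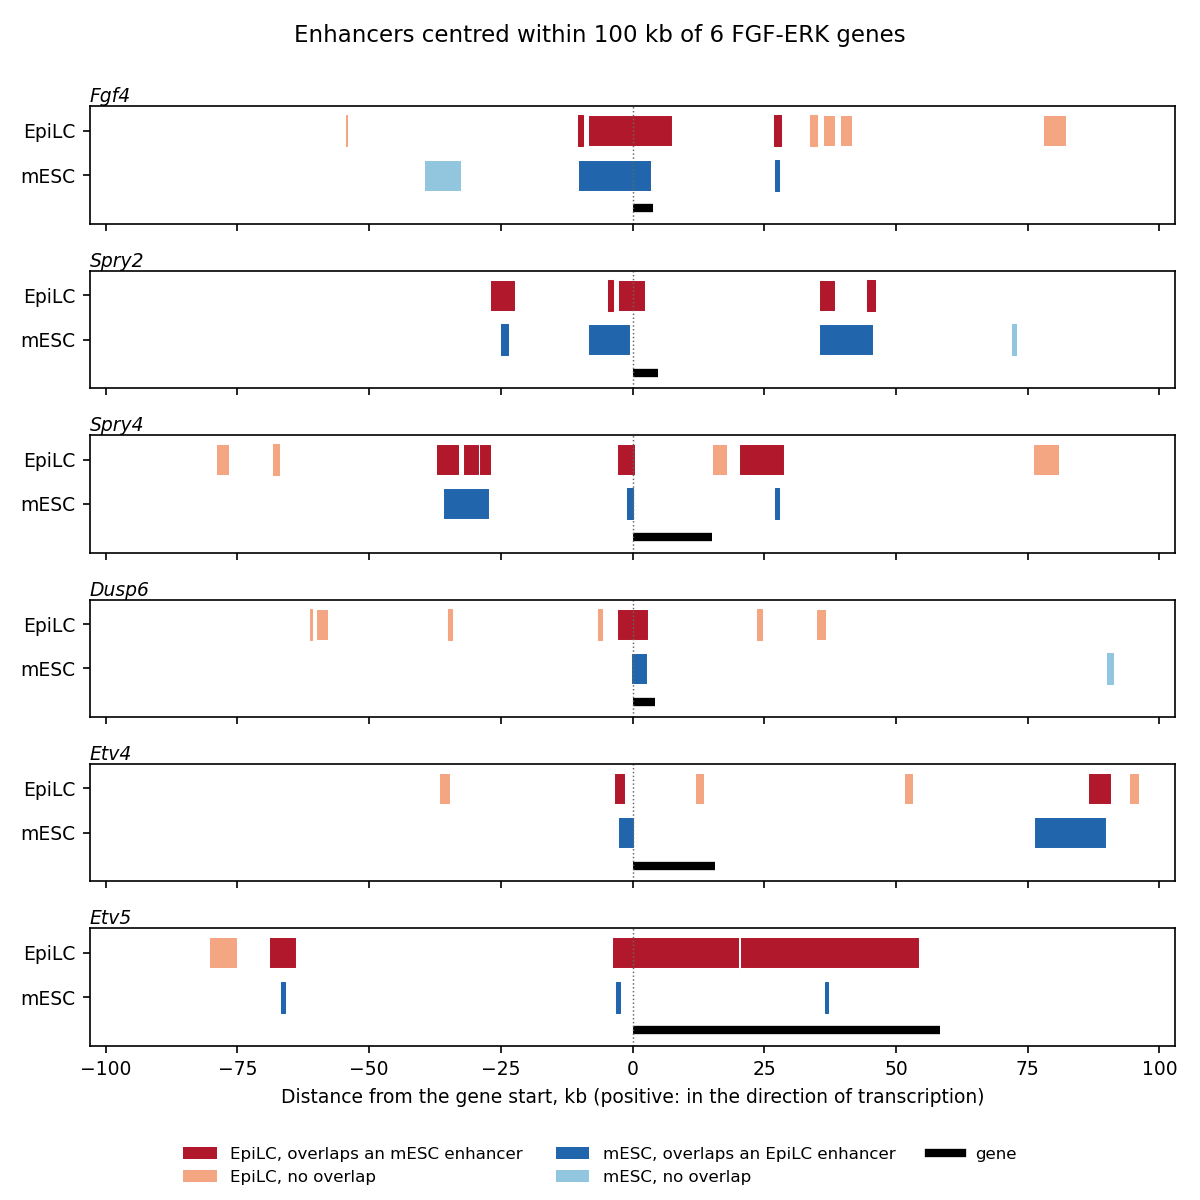
Enhancers centred within 100 kb of each TSS (dotted line at 0), drawn to scale by distance in kb along the direction of transcription, with EpiLC regions above mESC regions and the gene interval as a black bar. Dark bars overlap the other set by at least 1 bp and pale bars do not; 8 of the 9 EpiLC bars centred within 10 kb of a gene start are dark, and 2 EpiLC regions cover 93.0% of Etv5.

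With all rows counted, overlap was most frequent close to the gene starts. Of the EpiLC regions centred within 10 kb of a TSS, 8 of 9 overlapped an mESC region, and the exception was a 775 bp region 6.17 kb upstream of Dusp6. Between 10 and 50 kb the count was 9 of 18, and from 50 to 100 kb it was 2 of 12. Over all pairs of a gene and an EpiLC region, the shares in the same 3 bands were 17.7%, 21.5% and 21.3%, with no such decline. The mESC regions gave 6 of 6, 6 of 7 and 2 of 4, where all pairs gave 50.9%, 47.3% and 46.7%. The counts per band are small and regions of 1 gene share a locus. Most of the decline in the EpiLC set came from the leading block of the mESC table. Without that block the EpiLC counts were 3 of 9, 4 of 18 and 2 of 12, where all pairs gave 15.7%, 19.2% and 19.0%, and the mESC counts were 3 of 3, 4 of 5 and 2 of 4, where all pairs gave 48.8%, 45.3% and 44.6%.

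**Figure D2:**
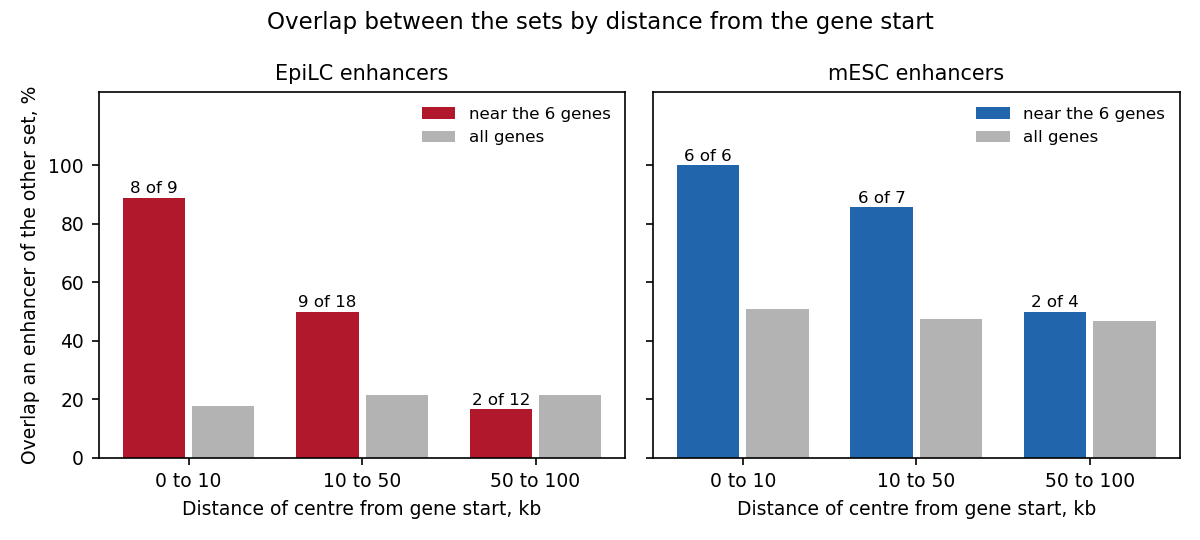
Share of enhancers that overlap a region of the other set, in percent, by distance of their centre from the TSS in kb, for EpiLC regions (left) and mESC regions (right). Coloured bars stand for regions near the 6 genes, with counts, and grey bars for all pairs of a gene and a region; within 10 kb the EpiLC bars are 88.9% and 17.7%, all mESC rows included, and 8 of 9 becomes 3 of 9 without the leading block of the mESC table.

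Of the 6 gene starts, 5 lay inside an EpiLC enhancer and 4 inside an mESC enhancer. Among all genes the TSS lay inside an EpiLC enhancer for 14.0%, inside an mESC enhancer for 1.16% and inside one of each set for 0.622%. Fgf4, Spry4 and Dusp6 had their TSS inside a region of both sets. Spry2 and Etv5 had it inside an EpiLC region only, and Etv4 inside an mESC region only. The mESC regions over the starts of Fgf4 and Spry4 belong to the leading block; without it 2 starts, of Dusp6 and Etv4, lay inside an mESC region, beside 0.94% of all genes, and 1, of Dusp6, inside a region of each set, beside 0.462%. Summed over the 6 genes, the EpiLC regions covered 172 kb and the mESC regions 75.5 kb. Of these bases 41.8 kb were common to both sets, which is 24.4% of the EpiLC and 55.4% of the mESC bases; over the whole sets the shares were 13.8% of the EpiLC and 34.7% of the mESC bases.

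**Figure D3:**
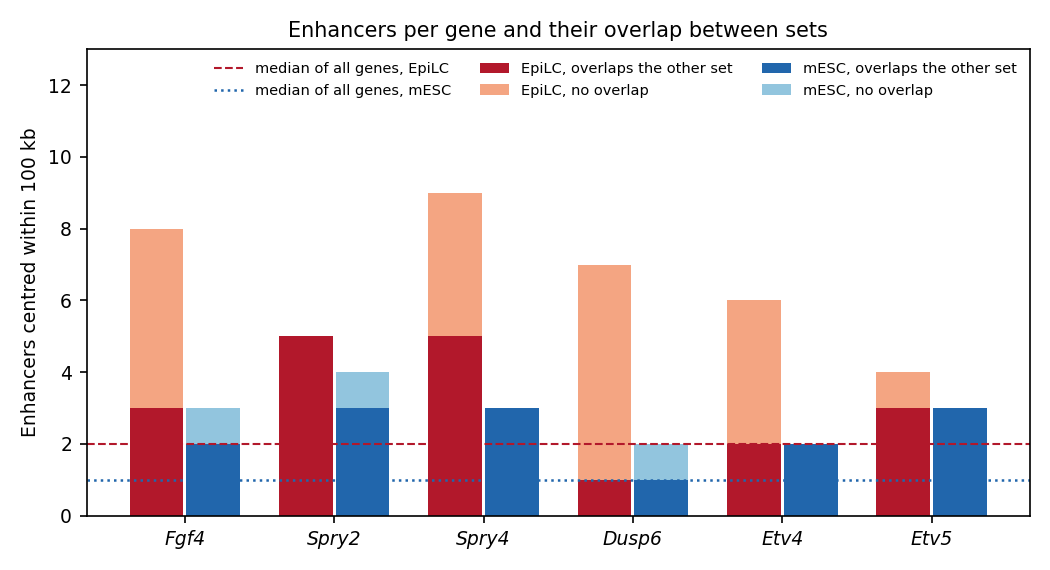
Number of enhancers centred within 100 kb of each TSS, with EpiLC bars left of mESC bars, split into regions that overlap the other set (dark) and regions that do not (pale). The lines mark the medians of all genes, 2 EpiLC and 1 mESC regions; all 6 genes stand above both, from 4 EpiLC regions at Etv5 to 9 at Spry4.

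Fgf4, the ligand, is at chr7:144861386-144865245 on the plus strand. It had 8 EpiLC regions, a number that 3.59% of genes reached, and 3 mESC regions, which 8.31% reached. Its main feature was a pair of long regions over the gene itself. An EpiLC region of 16.1 kb (chr7:144852827-144868926) covered 100% of the gene interval, and an mESC region of 13.8 kb (chr7:144850968-144864811) covered 88.8%. The pair shared 11985 bp, including the TSS and the paired SOX and POU words printed above, which lie 400 bp before the end of the mESC region. A further EpiLC region of 800 bp, centred 9.88 kb upstream, lay whole inside the same mESC region and was the source of the Fgf4 shared stretch. A second place common to both sets was 27.5 kb downstream, with 1375 bp in the EpiLC set and 762 bp in the mESC set.

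The other Fgf4 regions were found in 1 set only. The EpiLC set alone had regions at 34.4, 37.3, 40.5 and 80.0 kb downstream, of 1325, 2125, 2150 and 4325 bp, and one of 275 bp at 54.3 kb upstream. The mESC set alone had a region of 7014 bp centred 36.2 kb upstream. Several of these lie closer to other genes. Fgf3 starts 22.8 kb upstream, Fgf15 35.1 kb downstream and Ccnd1 78.5 kb downstream; Fgf3 and Fgf15 encode other FGF ligands, and Ccnd1 encodes cyclin D1. Fgf15 was the nearest TSS of 4 EpiLC regions and 1 mESC region, Fgf3 of 1 EpiLC and 1 mESC region, and Ccnd1 of 1 EpiLC region. Fgf4 itself was the nearest TSS of 2 EpiLC regions and 1 mESC region. Which of these genes a region acts on cannot be read from positions.

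Spry2 is at chr14:105891947-105896819 on the minus strand, with no other TSS of the gene table in its window. It had 5 EpiLC and 4 mESC regions, and 2.31% of genes had as many mESC regions. Every one of its EpiLC regions overlapped an mESC region, all but the one 24.7 kb upstream with a region of the leading block. Spry2 and Etv4 were the genes among the 6 with fewer EpiLC than mESC bases, at Spry2 15.3 kb in EpiLC regions and 20.4 kb in mESC regions. Around the TSS an EpiLC region of 5175 bp and one of 925 bp met a single mESC region of 7947 bp, which ended 451 bp before the TSS. Downstream, EpiLC regions of 2975 bp at 36.9 kb and 1350 bp at 45.2 kb met a single mESC region of 10434 bp centred at 40.5 kb. The octamer printed for Spry2 lies in the 2975 bp stretch. Both sets thus held the same place downstream, in pieces in the EpiLC set and as 1 region in the mESC set. That mESC region belongs to the leading block. Whether the pieces reflect the cells or how the sets were made cannot be told apart. At 24.7 kb upstream an EpiLC region of 4850 bp held an mESC region of 1336 bp whole. The mESC set alone had a region of 662 bp at 72.4 kb downstream.

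Spry4 is at chr18:38586265-38601268 on the minus strand, likewise with no other TSS of the gene table in its window. It had the most EpiLC regions of the 6 genes, 9, a number that 1.9% of genes reached, and 3 mESC regions, all of which overlapped. Upstream, 3 EpiLC regions in a row, of 4200, 2975 and 2150 bp, met a single mESC region of 8673 bp centred at 31.7 kb. At the TSS an EpiLC region of 3375 bp held an mESC region of 1135 bp whole. The third shared place was 27.4 kb downstream, where an EpiLC region of 8450 bp held an mESC region of 668 bp. At each of these 3 places the mESC set had a single region. The 4 regions found in the EpiLC set alone were at 77.8 and 67.7 kb upstream and at 16.5 and 78.5 kb downstream. In total the regions covered 32.4 kb in the EpiLC set and 10.5 kb in the mESC set. The GENCODE M21 annotation holds a further gene here, AC133601.1. The EpiLC and the mESC region at the TSS were both centred within 1 kb of a transcript start of AC133601.1. The 3 EpiLC regions in a row upstream were centred in its introns.

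Dusp6 is at chr10:99263231-99267489 on the plus strand. Its 2 sets met only at the gene. There an EpiLC region of 5875 bp centred on the TSS held an mESC region of 3101 bp whole, and the EpiLC region covered 68.6% of the gene interval, the mESC region 63.5%. The other 6 EpiLC regions, of 375 to 2225 bp, lay between 61.1 kb upstream and 35.8 kb downstream and overlapped nothing in the mESC set. The other mESC region, 1138 bp long, was 90.5 kb downstream, the farthest mESC region counted for any of the 6 genes. All 9 regions had Dusp6 as their nearest TSS of the gene table. In the fuller GENCODE M21 annotation 2 EpiLC regions were centred within 1 kb of a transcript start of another gene. These were the region 34.6 kb upstream (Gm34574) and the one 35.8 kb downstream (B530045E10Rik).

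Etv4 is at chr11:101769748-101785310 on the minus strand. It had 6 EpiLC and 2 mESC regions, with 13.7 kb in EpiLC and 16.6 kb in mESC regions. Just upstream an EpiLC region of 2025 bp and an mESC region of 2995 bp shared 1309 bp, and only the mESC region reached over the TSS. The second shared place was far away, where an EpiLC region of 4325 bp centred 88.6 kb downstream and an mESC region of 13573 bp centred 83.0 kb downstream shared 3346 bp. Of the 4 Etv4 octamers printed above, 3 fall in this distant stretch. Its nearest gene start is not Etv4: Dhx8, which encodes an RNA helicase, was the nearest TSS of the mESC region, and Arl4d, which encodes a small GTPase, that of the EpiLC region. Arl4d was also the nearest TSS of an EpiLC region of 1825 bp at 95.2 kb, the farthest EpiLC region counted. Just outside the window, the next Etv4 regions were an EpiLC region at 103.2 kb and an mESC region at 103.1 kb.

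Etv5 is at chr16:22381313-22439570 on the minus strand. The sets differed most in extent here. EpiLC regions covered 68.8 kb within its window, the most of all 24263 genes, followed by Ncoa3 with 65.0 kb, Zmynd8 with 64.9 kb and Plekha4 with 61.2 kb. The mESC regions covered 2.25 kb. A region of 33904 bp (chr16:22385202-22419105), the second longest of the whole EpiLC set, and an adjacent one of 24275 bp (chr16:22419302-22443576), number 14 in length, covered 93.0% of the gene interval in EpiLCs, against 0.997% covered by mESC regions. By number of regions Etv5 was less unusual, with 4 EpiLC regions, which 25.1% of genes reached, and 3 mESC regions. Without EpiLC regions over 10 kb it had 10575 bp and was number 4269, so its place at the top rests on those 2 regions. It stayed at number 1 with a window of 50 kb and with regions clipped to the window.

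All 3 mESC regions of Etv5 lay whole inside EpiLC regions. They were 765 bp long at 66.4 kb upstream, 906 bp at 2.79 kb upstream, the source of the Etv5 shared stretch, and 581 bp at 36.8 kb downstream within the gene. The Etv5 TSS lay inside the 24275 bp EpiLC region and 2338 bp from the nearest mESC region. The remaining EpiLC region, 5375 bp at 77.8 kb upstream, overlapped nothing. The noncoding gene 9230117E06Rik was the nearest TSS of both distant EpiLC regions and of the mESC region at 66.4 kb.

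**Figure D4:**
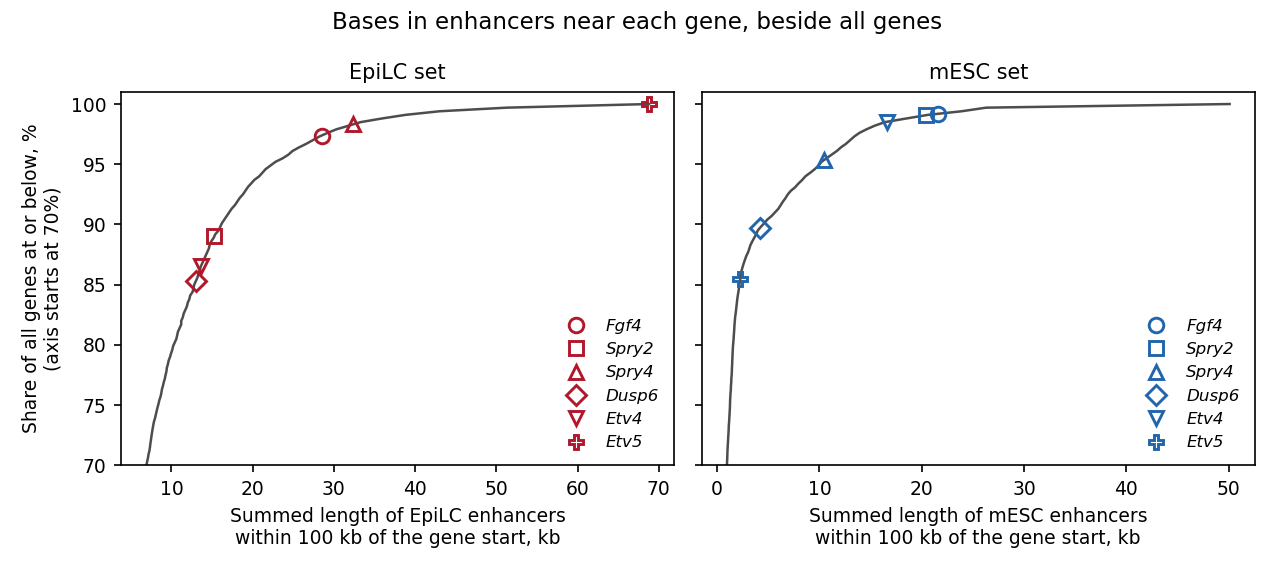
Cumulative share of all 24263 genes, in percent, by the summed length in kb of EpiLC regions (left) and mESC regions (right) within 100 kb of the TSS, with the 6 genes marked; the vertical axis starts at 70%. Etv5 is at the top of the EpiLC curve with 68.8 kb and lowest of the 6 on the mESC curve with 2.25 kb.

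Long regions of both sets bear on these counts. EpiLC regions over 10 kb lay near Fgf4 (1) and Etv5 (2), and 3.66% of all genes had one in their window. The median length of the 231 rows of the leading mESC block was 8667 bp, against 703 bp in the other rows, and 96.5% of them overlapped an EpiLC region, against 41.5% of the others. What the block is, is not given in the sources used here. It supplied 1 region at Fgf4, 2 at Spry2 and 2 at Spry4, while 3.19% of all genes had one in their window.

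The DNA at the centres of the regions was searched for 13 motifs on both strands within 500 bp. They were the POU octamer (ATGCAAAT, and with 1 free base ATGCNAAT, which includes it), the SOX core (CATTGT or CTTTGT), an adjoining SOX-POU word that overlaps the octamer, ESRRB (CAAGGTCA), KLF (GGGTGTGG or GGGCGTGG), STAT (TTCCNGGAA), ETS (CCGGAAGT), TCF (CTTTGATC), CRE (TGACGTCA), AP-1 (TGANTCA), E-box (CACGTG) and OTX (TAATCC). In EpiLC regions near the 6 genes, OTX words occurred in 11 of 39 (28.2%), against 19.1% of the whole set, AP-1 words in 8 (20.5%), against 14.1%, and the octamer with 1 free base in 6 (15.4%), against 9.34%. The SOX core was below the set there, in 19 of 39 (48.7%), against 53.5%. In mESC regions near the 6 genes the SOX core occurred in 14 of 17 (82.4%), against 71.0% of the whole set, and OTX words in 6 (35.3%), against 20.5%. The octamer with 1 free base was below the set in mESC regions, in 2 (11.8%), against 19.0%, and so were AP-1 words, in 1 (5.88%), against 16.6%. OTX was thus above the set in both. So was ESRRB, with 7.69% against 4.67% in EpiLC and 11.8% against 8.1% in mESC regions. The octamer without a free base was too, with 7.69% against 5.27% and 11.8% against 10.5%. KLF, CRE and the adjoining SOX-POU word were below the set in both. E-box words occurred in 17.6% of mESC regions, against 5.19%, but in 5.13% of EpiLC regions, against 7.69%. The ETS word, the class of site that ETV4 and ETV5 bind, occurred in 2 of 39 EpiLC regions (1.97% of the set) and in 0 of 17 mESC regions (0.716% of the set). The 2 EpiLC regions were counted for Etv4, at 52.4 and 88.6 kb downstream, but their nearest TSS were those of Dhx8 and Arl4d. The side of the set also depended on the width searched. Over 300 bp, 1000 bp and whole regions, OTX stayed above and the adjoining SOX-POU word below in both sets, but others changed. ESRRB occurred in 0 of 17 mESC regions over 300 bp, against 5.9%. The octamer without a free base was in 11.8% of mESC regions over 1000 bp, against 13.7%. KLF was above the set over whole regions, with 33.3% against 28.2% in EpiLC and 47.1% against 20.1% in mESC regions. The differences amount to a few regions each and are a description of letters, not of binding.

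**Figure D5:**
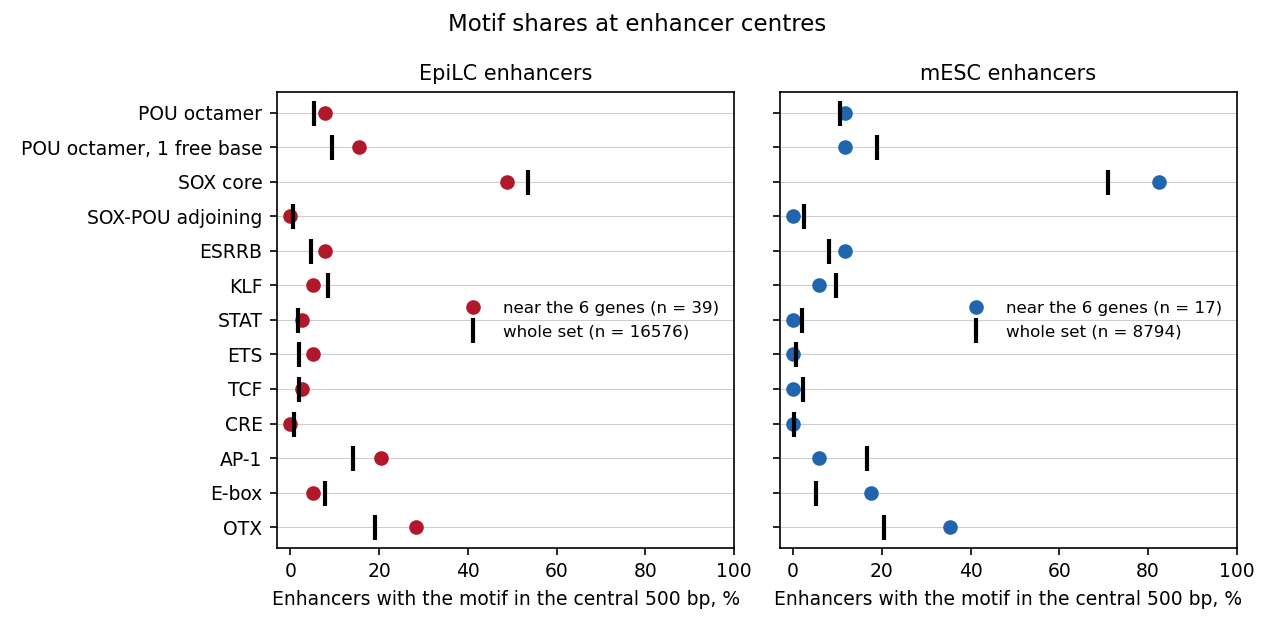
Share of enhancers with each motif in their central 500 bp, in percent, for EpiLC regions (left) and mESC regions (right). Points stand for regions near the 6 genes (n = 39 and n = 17) and vertical marks for the whole set. The SOX core is the most common motif in all 4 groups of regions, from 48.7% to 82.4%. The motifs differ in the length and number of their words, so shares cannot be compared between motifs.

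The octamer was also counted over the whole of the 19 shared stretches, which measured 581 to 11985 bp. It occurred 9 times in 5 of them, at Fgf4, Spry2, Spry4 and Etv4, or 2.15 times per 10 kb. Over all 4288 shared stretches of the genome the rate was the higher one, 2.58 per 10 kb. No octamer was found in the shared stretches of Dusp6 or Etv5.

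The other genes of the pathway are given by role, from lists of 85 genes of which 84 were found in the gene table. Of these, 75 had an EpiLC enhancer and 66 an mESC enhancer within 100 kb. Of all genes 74.0% had an EpiLC enhancer, 55.3% an mESC enhancer and 47.9% both. Among the lists only the ligands fell below a share of all genes, that for EpiLC regions. Among 21 other FGF ligands, 15 had an EpiLC and 16 an mESC region; Fgf21 had 12 EpiLC and 2 mESC regions, Fgf15 had 8 EpiLC and 3 mESC regions, and Fgf3 had 7 EpiLC and 3 mESC regions, and Fgf15 and Fgf3 share regions with Fgf4. All 7 receptors and co-receptors had both, led by Fgfr1 with 6 EpiLC and 3 mESC regions, Fgfr2 with 5 EpiLC and 3 mESC regions, and Kl, a co-receptor, with 6 EpiLC and 2 mESC regions. Among the 19 adaptors and RAS-MAPK core genes 19 had an EpiLC and 15 an mESC region, with 7 EpiLC and 3 mESC regions at the docking protein gene Frs3, 5 EpiLC and 4 mESC at the kinase gene Araf, and 8 EpiLC and 1 mESC at Map2k2, which encodes MEK2. The adaptor gene Shc1 had the same sum as Araf and Map2k2, with 8 EpiLC and 1 mESC regions.

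Among the other feedback genes 14 of 16 had an EpiLC region and 10 an mESC region, beside 74.0% and 55.3% of all genes. The Sprouty-related inhibitor Spred2 had 5 EpiLC and 4 mESC regions, Dusp1, a phosphatase of MAP kinases, had 6 EpiLC and 2 mESC regions, and Il17rd, an FGF antagonist also called Sef, had 5 EpiLC and 3 mESC regions. Among 21 nuclear effectors and repressors 20 had an EpiLC and 18 an mESC region. The repressor genes Cic and Erf led with 8 EpiLC and 3 mESC regions each, followed by the kinase gene Rps6ka1 with 6 EpiLC and 3 mESC regions. Cic and Erf also had the same numbers of overlapping regions, 3 EpiLC and 2 mESC, and whether they share regions was not checked. The TSS lay inside an EpiLC region for 5 of the 6 genes and 15 of these 84, beside 14.0% of all genes. It lay inside an mESC region for 4 of the 6 genes and 2 of the 84, Dusp1 and Etv1, beside 1.16% of all genes. Etv1, a paralogue of Etv4 and Etv5, was named after its values were seen. So was Fgf5, a marker gene of the post-implantation epiblast, which had 6 EpiLC and 0 mESC regions and was the 1 ligand of the list with its TSS inside an EpiLC region.

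The 4 counts of a gene, that is EpiLC and mESC regions with and without overlap, were compared with those of all other genes. The counts of Spry2 were matched by 0 genes. Those of Spry4 were matched by 3, Tcf7l1, Sox2 and Mir8110, and those of Fgf4 by 8, nearest in covered bases being Fgf15, which shares its regions, 1810013L24Rik and B4galnt4. Etv5 had 19 matches, with Ift52, Sgk2 and Cdk5rap1 nearest, Dusp6 had 62, with Anapc13, Cep63 and Slc9a3r1 nearest, and Etv4 had 88, with Ecscr, Myh7 and 2410006H16Rik nearest. The matches are out of 24263 genes, and the usual number of matches for a gene was not computed.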

How the data were processed

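The deposited tables used here are 3 lists of mm10 coordinates (chromosome, start, end, strand), with 0 columns of values per library. Per the series' design text, the authors took the mESC and EpiLC enhancers from earlier publications of other groups and lifted them over to mm10; the EpiLC set rests on H3K27ac, H3K4me1 and p300 peaks. The 2 sets were thus made by different groups and rules, and the EpiLC regions are longer, so differences in count or width between the sets cannot be told apart from how they were made. For the culture conditions behind the sets, and for how the gene intervals were built, nothing was found in the sources used here. Tools listed in the submitters' processing notes, with no role stated, are bedtools 2.29.2, Bowtie2 2.3.4.1 and Trimmomatic 0.38, beside the genome builds dm6 and mm10.

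Genes were named by matching intervals to RefSeq. Members, gene lists and motifs were chosen with earlier results of these data known. Each interval's 5′ end served as TSS, with starts counted from 0; it lay 79 bp from the RefSeq start for Spry4 and on it for the other 5, and a GENCODE M21 transcript of Fgf4 starts 14019 bp upstream. Enhancer starts were also counted from 0, which their values could not settle to within 1 bp. Promoter sequences were held for 4 of the 6 genes. Counting, overlap, nearest TSS and motif steps used Python 3.11.15, pandas 2.3.3, numpy 2.4.6 and pysam 0.24.0, and were tested on simulated data. Named genes are the 6 members, the 3 genes of each list with most enhancers (ties by name), nearest-TSS genes, and up to 3 genes with the same counts. Planned comparisons of mutant with control libraries had no values to run on. The closing section gives the effect of other settings.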

Additional observations from a re-analysis of the deposited data

How the results depend on the processing

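Of 74 alternatives to the summary counts and sums, 60 stayed within 1.5 times of the reported value and 14 did not. Some of the 60 could not move. Leaving out the leading mESC block cannot change the 39 EpiLC regions or their 171529 bases, and counting enhancer starts from 1 shifts them by only 1 bp. The tally is therefore no measure of how stable the values are. The numbers of overlapping regions near the 6 genes, 19 EpiLC and 14 mESC, depend on the overlap rule: 3 EpiLC and 3 mESC regions overlapped by at least 50% of both regions (4.97% of the EpiLC and 9.36% of the mESC set), and 4 EpiLC and 4 mESC regions (14.1% of the EpiLC and 26.1% of the mESC set) when each region was reduced to 500 bp around its centre. Without regions longer than 10 kb 12 of 36 EpiLC and 9 of 14 mESC regions overlapped (21.7% of the EpiLC and 39.5% of the mESC set), and 9 of 39 EpiLC and 9 of 12 mESC regions did so (23.6% of the EpiLC and 41.5% of the mESC set) once the leading block of the mESC table was left out, so that the EpiLC share was no longer above that of the set. Bases covered fell to 97250 in the EpiLC set and 37683 in the mESC set without regions longer than 10 kb, and to 33501 in the mESC set without the leading block. The octamer with 1 free base was found in 3 EpiLC regions over 300 bp (7.69%, beside 5.94% of the set). Over whole regions it was found in 12 EpiLC regions (30.8%, beside 26.6%) and in 7 mESC regions (41.2%, beside 29.7%). In the mESC set it was thus above the set over whole regions but below it over 500 bp (11.8%, beside 19.0%). For the other motif counts 37 of 72 alternatives stayed within 1.5 times and 35 did not; wider searches hold more bases. The alternatives for the rank of Etv5, and those without the leading block for distance bands and gene starts, were chosen after seeing the data. No paired analysis was possible because the tables hold no values per library. For the same reason the alternatives planned for mutant against control libraries (pseudocount, filter, replicate block, leaving out replicates) were not run. Region lists carry no depth, signal or replicates, so no error can be given for any count.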
